A study of Drosophila melanogaster with 2 samples.

Results

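The chromatin immunoprecipitation of GFP-tagged CG32264 placed 771 of 30000 listed regions with their summit inside protein-coding sequence and more than 500 bp from any annotated transcript start (2.57%, exact Clopper-Pearson 95% interval 2.39 to 2.76%). These coding-exon peaks were taken from the authors' list of peaks and background regions made from both replicates together. The choice used only the position of the summit in genome build dm6 and the Ensembl coding annotation, so neither the signal of a region nor its presence in a replicate entered it. Without the distance limit 1068 summits lay in coding sequence. The samples were whole larvae of Drosophila melanogaster, males and females pooled, at the wandering stage of the third instar, from 1 transgenic line that stably expresses CG32264 with GFP at its C terminus. Material was precipitated with an antibody against GFP in 2 biological replicates, numbered 1 and 3, and there was no second condition. All cell types of the larva were mixed, and the promoter that drives the fusion is not given in the sources used here. A control library is not analysed here.

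CG32264 is a fly member of the Phactr family, whose vertebrate proteins bind actin and a protein phosphatase. It is not a classical DNA-binding factor, and ChIP-seq of such a protein reads the DNA that was near it, or near what it was bound to, when the chromatin was fixed. Sequence-specific regulators of flies are mostly mapped to promoters, introns and intergenic enhancers. Coding exons encode protein, are richer in G and C than introns, and are transcribed where the gene is active. The irreproducible discovery rate (IDR) method compares the ranks of regions between replicates, and a list fed into it holds weak regions and background on purpose.

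Sequences are shown so that the composition under these summits, which varied widely, can be read directly. The reference sequence of dm6, 50 bases on each side of the summit and on the coding strand, is given for those of the 15 strongest coding-exon peaks found in both replicates that lay on 2L, 3L, 3R, 4 or X, in 1 coding exon and outside annotated untranslated sequence. Capitals mark the codon that holds the summit. The windows lie at chrX:11683559-11683659 for bif, chrX:2659521-2659621 for sgg, chr3R:30279272-30279372 for heca and chrX:1041523-1041623 for su(w[a]), all on the plus strand, and at chr2L:2190821-2190921 on the minus strand for CG10874. The last pair are the strongest peaks of chromosome 4 that met the same conditions on sequence and replicates, without being among the 15, added after their values were seen, at chr4:137507-137607 on the plus strand for anne and at chr4:162247-162347 on the minus strand for CG33978.
bif: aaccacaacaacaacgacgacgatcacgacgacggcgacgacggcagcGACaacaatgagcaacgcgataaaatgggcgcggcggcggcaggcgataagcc
sgg: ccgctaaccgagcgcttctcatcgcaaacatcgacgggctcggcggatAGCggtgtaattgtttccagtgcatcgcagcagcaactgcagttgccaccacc
heca: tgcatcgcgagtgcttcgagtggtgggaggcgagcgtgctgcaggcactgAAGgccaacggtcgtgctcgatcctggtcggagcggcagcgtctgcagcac
su(w[a]): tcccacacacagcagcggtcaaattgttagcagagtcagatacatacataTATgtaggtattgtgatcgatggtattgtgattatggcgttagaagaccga
CG10874: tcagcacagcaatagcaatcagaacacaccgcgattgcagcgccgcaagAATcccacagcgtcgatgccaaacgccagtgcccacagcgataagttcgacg
anne: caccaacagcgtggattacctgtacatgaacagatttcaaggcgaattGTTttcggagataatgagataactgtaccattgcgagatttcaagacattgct
CG33978: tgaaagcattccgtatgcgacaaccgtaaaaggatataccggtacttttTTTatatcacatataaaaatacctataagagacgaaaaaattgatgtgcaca

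The windows ran from 66.3% G and C in heca and 60.4% in bif to 41.6% in su(w[a]), 40.6% in anne and 32.7% in CG33978. The bif window repeats AAC and GAC units before its summit, which falls on codon 718, an aspartate codon, in an exon of 2537 bp. The sgg summit, at codon 74 of a coding exon of 1744 bp, is not coding in every transcript that spans it.

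These peaks were weak. Their signal, the authors' deposited value per region of the list, ran from 13.2 to 94.4 with a median of 16.3, against a median of 20.1 and a maximum of 885 for the 13104 intronic peaks chosen with the same limit of more than 500 bp from a start, and a median of 20.8 over all rows. The median distance to the nearest start was 1746 bp for coding-exon peaks and 3314 bp for intronic peaks. The ratio of the coding-exon to the intronic median was 0.812. It was 0.841 in the list of replicate 1 alone, which had 1061 coding-exon peaks, and 0.776 in the list of replicate 3 alone, which had 1257. The median −log10 of the authors' q value was 0.187 for coding-exon peaks and 0.334 for intronic peaks. The upper quartiles were 0.302 and 0.793. By their q values most coding-exon peaks were thus not clearly separated from background. A peak here means a row of the list, which holds background on purpose, and not an established binding site. The authors' optimal set of 2546 peaks, which they kept after IDR, held 1 coding-exon peak, that of otp.

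The coding-exon peaks gathered towards the weak end of the list. When the list was cut by signal into 10 bins of 3000 rows, the strongest bin held 3 of them (0.1%) and the next ones 12, 15, 43, 59, 107, 116, 117 and 143, and the weakest bin held 156 (5.2%). Intronic peaks filled the bins more evenly, with 1142 in the strongest bin (38.1%) and 1395 in the weakest (46.5%). Among the stronger 50% of rows were 132 coding-exon peaks (17.1% of them, interval 14.5 to 19.97%), against 6181 intronic peaks (47.2%). The 2 weakest bins held 299 coding-exon peaks (38.8%) and 2779 intronic peaks (21.2%).

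**Figure D1:**
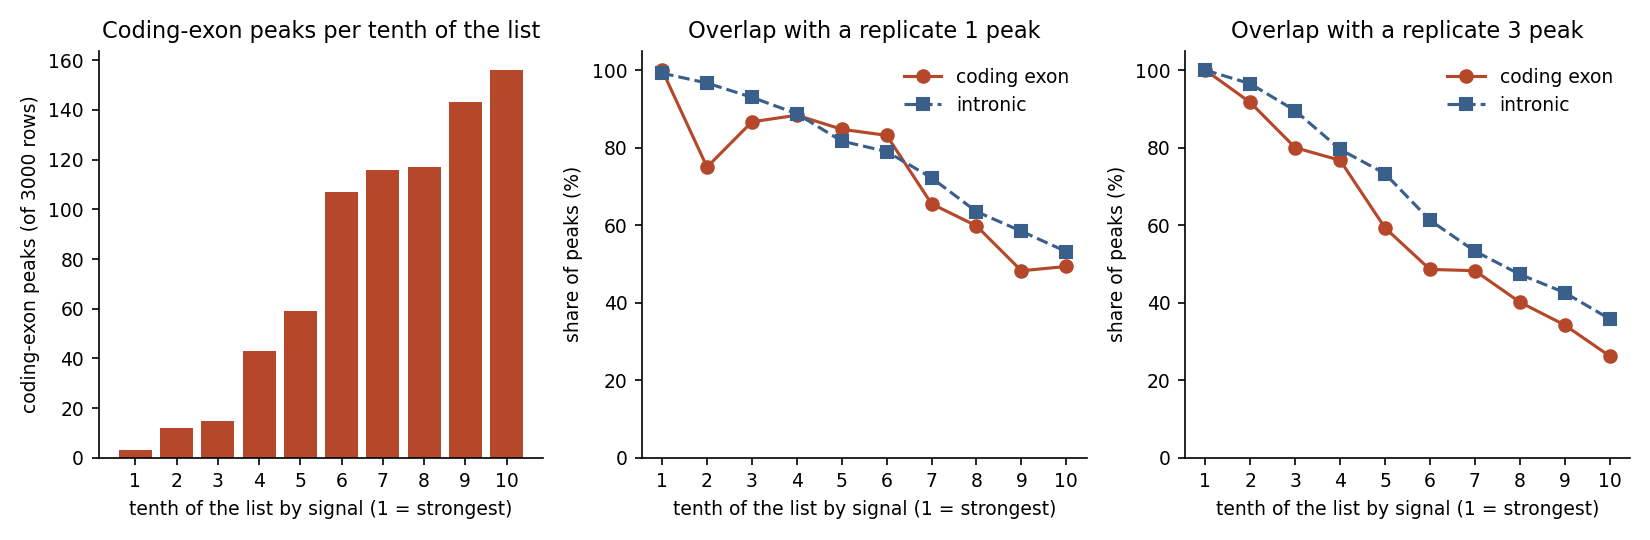
Left, the number of coding-exon peaks in each of 10 bins of 3000 rows ordered by signal, which climbs to 156 in the weakest bin. Centre and right, the share (%) of coding-exon peaks (circles) and intronic peaks (squares) in each bin that overlap a peak of replicate 1 and of replicate 3; the strongest bin holds only 3 coding-exon peaks, so its 100% rests on those.

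Presence in the separate replicate lists was tested because the choice of the peaks did not use it. The list of both together was made from the same replicates, so the signal of a row and its presence are not independent. A region counted as present when it shared at least 1 bp with a row of that list. Replicate signals and ranks given for a peak are those of the strongest such row. In replicate 1, 494 of 771 coding-exon peaks were present (64.1%), against 10175 of 13104 intronic peaks (77.6%) and 77% of all rows (odds ratio against intronic peaks 0.513, interval 0.440 to 0.60, two-sided Fisher's exact test, adjusted exact p = 1.14e-16). In replicate 3, 339 were present (43.97%), against 66.5% of intronic peaks and 69.1% of all rows (odds ratio 0.395, interval 0.340 to 0.458, adjusted exact p = 2.81e-35). Both replicates held 155 (20.1%), against 49.8% of intronic peaks and 51.5% of all rows (odds ratio 0.253, interval 0.210 to 0.304, adjusted exact p = 2.43e-61). The coding-exon peaks were thus found less often in either replicate and in both.

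Presence moved with signal, and the odds ratios were closer to 1 at matched signal. Within the 10 signal bins the pooled Mantel-Haenszel odds ratio was 0.828 for replicate 1 (interval 0.706 to 0.973), 0.684 for replicate 3 (0.585 to 0.799) and 0.503 for both (0.410 to 0.617). For replicate 1 the bins differed. Counted from the strongest, coding-exon peaks were present more often in bin 5 (84.7%, against 81.7% of intronic peaks) and bin 6 (83.2%, against 79.0%). The same held in the strongest bin, on 3 coding-exon peaks, and they were present less often in all other bins. Among the stronger 50% of rows, 56.8% of the 132 coding-exon peaks were in both replicates, against 78.9% of 6181 intronic peaks. In the 2 weakest bins these shares were 4.68% and 14.2%. Another row overlapped 9.21% of coding-exon peaks and 20.2% of intronic peaks, and a neighbouring row can lend a partner. Among peaks that no other row overlapped, 16.3% of coding-exon peaks and 43.0% of intronic peaks were in both. These tests run over regions of 2 replicates, not over larvae, and treat the regions as independent although some overlap. Every list ends at 30000 rows, so an absent region may lie just past that end.

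Some coding-exon peaks rested on 1 replicate or on neither. Replicate 1 alone held 339 of them (43.97%, against 27.8% of intronic peaks) and replicate 3 alone 184 (23.9%, against 16.7%). In neither list were 93 (12.1%, against 5.64%), all in the weaker 50% of rows, with signals of 13.2 to 19.6. The peaks of replicate 1 alone had 46.1% ± 10.01 G and C over 100 bp on each side of the summit (SD over windows), those of replicate 3 alone 50.96% ± 9.45, those of both 46.6% ± 10.7 and those of neither 49.4% ± 9.89. The SDs overlap widely.

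The strongest of them was at otp, which encodes a homeodomain transcription factor (FBgn0015524, summit in the last of 6 coding exons, rank 1179). Its signal was 94.4 in the list of both together, 64.7 in replicate 1 and 35.5 in replicate 3. It is followed by bif, which encodes the actin-binding cytoskeletal protein Bifocal and had a pair of peaks in the same long exon. The stronger had 58.4 in the list of both together, 17.3 in replicate 1 and 40.4 in replicate 3. The other had 48.0 and was not in replicate 1, while in replicate 3 it reached 52.1, the highest signal of any coding-exon peak there (rank 741). In the list of replicate 1 the highest coding-exon peak had 172.6, above the 64.7 of otp, and overlapped no coding-exon peak of the list of both together. The scale of signal belongs to each list, so the replicates are compared by rank. The otp peak ranked 920 in replicate 1 and 1693 in replicate 3, while the stronger bif peak ranked 9646 and 1308.

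CG31259 had 57.4 in the list of both together, 43.1 in replicate 1 and 11.3 in replicate 3, and 40.7% of its peak length was coding. The peak of Naprt, an enzyme of NAD synthesis, had 53.8, 37.8 and 21.4 in the same order of lists. At sgg, the fly glycogen synthase kinase 3, the values were 53.1, 27.8 and 15.4. Spn88Eb, a serpin gene, had 46.9, 26.4 and 17.0. Each of these 4 ranked higher in replicate 1 than in replicate 3, with CG31259 furthest apart at 1938 and 13220. The coding share of the peak was 45.5% at Naprt and 50.8% at Spn88Eb, and 100% at sgg. It was below that of CG31259 at CG18473 (37.2%) and CG34112 (36.7%), named next.

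Further down, CG18473 had 44.2 in the list of both together, 33.1 in replicate 1 and 7.80 in replicate 3. The imaginal cell gene heca (headcase) had 43.7, 28.1 and 13.6, and su(w[a]), a splicing regulator that acts on its own transcript, had 40.6, 14.3 and 30.5. The peak of su(w[a]) lay in sequence that is coding in some of its transcripts only. The translational repressor gene eIF4EHP had 38.8, 19.4 and 8.67, and the calpain protease gene CalpA had 35.4, 22.7 and 12.95. The Hedgehog pathway transcription factor gene ci, on chromosome 4, also had 35.4, with 20.2 in replicate 1 and 13.8 in replicate 3. The remaining ones of the 15 strongest found in both replicates were CG10874 (37.9), CG34112 (33.5) and CG30105 (32.3). Another row had its summit 203 bp from that of Naprt, 204 bp from that of eIF4EHP and 199 bp from that of CG34112. The replicate values of these peaks may belong to that neighbour.

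Some strong ones were missing from 1 replicate. Besides the second bif peak, those of Sdb (44.9 in the list of both together, 33.8 in replicate 3) and of RanBPM, a Ran-binding scaffold protein (40.02 and 40.7), overlapped no row of replicate 1. The peaks of CG11668 (42.2 in the list of both together, 25.5 in replicate 1), of the tau-tubulin kinase gene Asator (34.1 and 31.5) and of CG7987 (29.4 and 19.4) overlapped no row of replicate 3. At the weak end were CG7518 (13.2, present in replicate 3 with 7.18), Meics and Exn, whose weakest peaks, also at 13.2, overlapped no row of either replicate.

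**Figure D2:**
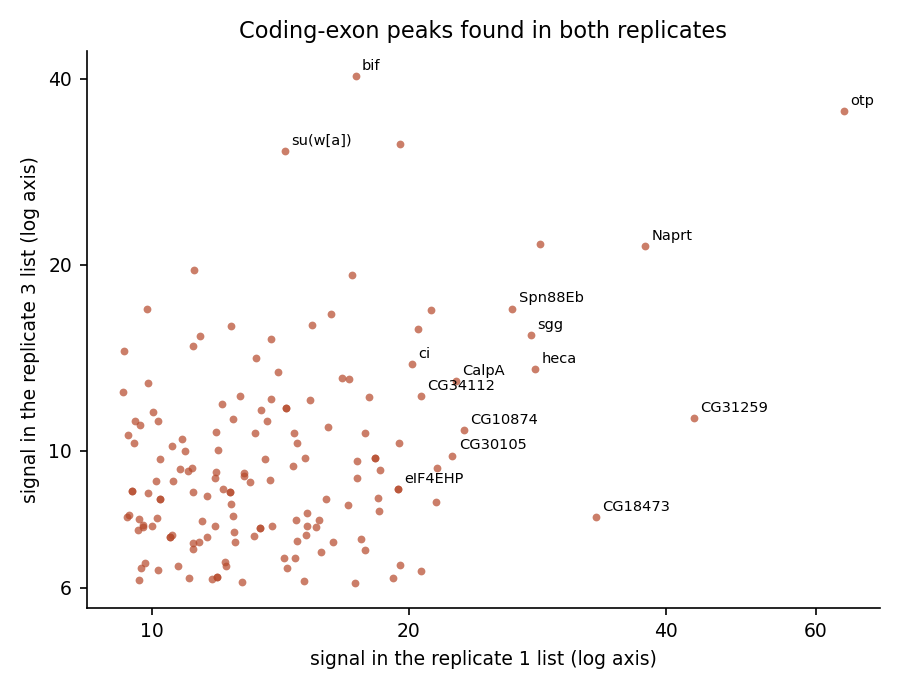
Signal in the list of replicate 3 (vertical, log axis) against signal in the list of replicate 1 (horizontal, log axis) for the 155 coding-exon peaks found in both; points are peaks, and the 15 strongest carry their host gene's name. Most lie in the weak corner, while otp is high in both lists, at 64.7 and 35.5.

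In the list of both together, base composition under the summits differed from that of the coding sequence the peaks could have fallen in. That sequence, all coding bases more than 500 bp from a start, came to 18.6 Mb of 22.8 Mb (81.5%), read at every 100th base. Over 100 bp on each side of the summit, coding-exon peaks had 47.8% ± 10.2 G and C, against 51.9% ± 7.14 for this coding sequence and 37.4% ± 6.56 for intronic peaks (SD over windows, which are not replicates). In that list the peaks were thus lower than coding sequence and higher than intronic peaks, with a wider spread than either. Coding-exon summits had 47.1% ± 9.44 in the list of replicate 1 alone and 51.4% ± 8.78 in that of replicate 3 alone. The value of replicate 3 lay close to that of coding sequence, so the lower mean rested largely on replicate 1.

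The number per Mb of eligible coding sequence was highest where G and C were low. It was 251 below 35% and 149 from 35 to 40%, then 67.4, 31.0 and 18.6 in the next bands of 5 points. Above 55% it was higher again, at 24.6 from 55 to 60% and 49.9 at 60% or more. Both replicate lists showed this shape on their own, with the lowest density at 55 to 60% in replicate 1 (27.8) and at 50 to 55% in replicate 3 (47.1). At 60% or more the densities were 53.6 in replicate 1 and 100.2 in replicate 3, and below 35% they were 302 and 174. Depth, the control and the mappability of each region are not known from these lists, and their part in this shape was not tested.

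Simple repeats were counted in the same windows. A run of 8 A, on either strand, was found within 100 bp of 4.67% of coding-exon summits (interval 3.29 to 6.41%), against 1.54% of coding positions and 19.97% of intronic summits. Read the same way, 4 CAG units in a row, which encode glutamine when in frame, were near 2.59% of coding-exon summits (1.59 to 3.98%), against 1.98% of coding positions and 0.450% of intronic summits. The letters GAGAG, the core that GAGA factor binds, were near 21.0% (18.2 to 24.1%), against 23.1% and 22.5%. The interval for the coding-exon summits covers the share of coding positions for CAG and GAGAG, and lies above it for the A run. Coding-exon summits lay at a median of 72 bp from an exon end, against 169 bp for coding positions, so their windows reached past the exon more often. The part of this in the counts was not tested.

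Chromosome 4, the small and largely heterochromatic dot chromosome, held 61 of the 771 peaks (7.91%) in 0.255 Mb of eligible coding sequence (1.37%). This is 239 per Mb, against 38.7 per Mb on all other arms together. In the list of replicate 1 alone the densities were 310 on chromosome 4 and 53.5 elsewhere, and in that of replicate 3 alone 129 and 66.7, so the size of the excess rested largely on replicate 1. Among the long arms, in the list of both together, the density was 45.6 per Mb on 3R, 43.2 on 3L, 37.6 on 2L, 37.2 on 2R and 27.4 on X. Coding windows of chromosome 4 averaged 39.96% G and C, but within bands of similar composition it was still denser in the list of both together, at 421 per Mb against 217 below 35%, 317 against 132 from 35 to 40%, and 118 against 65.5 from 40 to 45%, the last resting on 8 peaks. In replicate 1 alone the same bands gave 404 against 281, 418 against 189 and 221 against 103. In replicate 3 alone they gave 316 against 144, then 114 against 100.2 on 9 peaks of chromosome 4, and 44.2 against 84.6 on 3. In replicate 3 the excess was thus small from 35 to 40% and absent from 40 to 45%. Of its 61 peaks 54 were in replicate 1 (88.5%) and 18 in replicate 3 (29.5%). Its 221 intronic peaks were also found more often in replicate 1 (82.8%) than in replicate 3 (40.7%).

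On X the replicates stood the other way round. Of 91 coding-exon peaks there, 41 were in replicate 1 (45.1%) and 53 in replicate 3 (58.2%), while X-linked intronic peaks were at 71.4% and 73.5%. In the lists of single replicates X had 21.95 peaks per Mb in replicate 1, the lowest of the arms, and 74.6 in replicate 3, the highest after chromosome 4. Of the coding-exon peaks of the list of both together, each of the other 4 arms had more present in replicate 1 than in replicate 3. In the lists of single replicates, only 3L of these 4 was denser in replicate 1 (64.8 per Mb, against 63.5). There 2L had 59.3 in replicate 1 and 66.7 in replicate 3, 2R 52.3 and 64.9, and 3R 64.5 and 64.9. Since each replicate is 1 library, a difference between arms in larvae cannot be told apart from a difference between libraries.

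**Figure D3:**
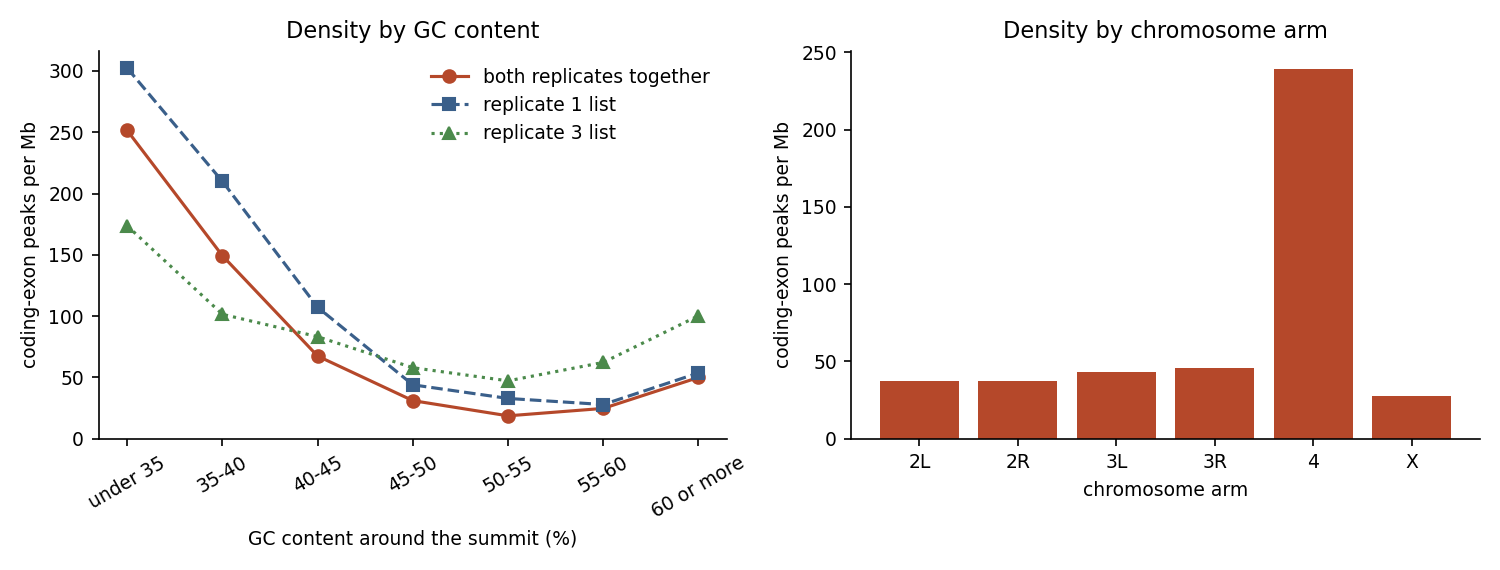
Left, coding-exon peaks per Mb of coding sequence more than 500 bp from a start, in bands of G and C content (%) around the summit, for the list of both replicates together and for each replicate list. Right, the same density by chromosome arm in the list of both together; chromosome 4 stands at 239 per Mb (310 and 129 in the lists of replicates 1 and 3) and no other arm above 45.6.

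Coding exons with a peak were short. The median exon length was 433 bp for coding-exon peaks, against 821 bp over eligible coding bases, and exons of 1000 bp or more held 183 peaks (23.7%, interval 20.8 to 26.9%), against 41.8% of bases. In the list of both together and in each replicate list density fell with every step of length. In the list of both together it was 152 per Mb in exons under 100 bp, 82.6 from 100 to 200 bp, 54.7 from 200 to 500 bp, 36.0 from 500 to 1000 bp, and 26.4 and 19.4 in the 2 classes of longer exons. From the shortest to the longest class it was 170 and 30.1 in replicate 1, and 131 and 37.3 in replicate 3. The summits also sat close to where an exon ends, at a median of 72 bp from the nearest end, against 169 bp for coding bases. Within 50 bp of an end the density was 80.0 per Mb, and 500 bp or more away it was 19.4. These densities were 104.1 and 28.7 in replicate 1, and 99.7 and 40.6 in replicate 3.

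Most of these peaks reached past the coding sequence. Each was 376 bp long with its summit at the midpoint, the format of 29557 of the 30000 rows, and 26.6% of them were coding over their whole length, against 47.2% for windows of that length at coding positions. The median coding share of a peak was 77.4%. Summits within 50 bp of an exon end had 42.2% ± 7.18 G and C and those 100 to 200 bp inside 53.7% ± 9.87, so the distance from an exon end and composition moved together. Their separate parts were not tested. Peaks coding over their whole length averaged 52.3% ± 10.7 and those partly coding 46.1% ± 9.49.

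By place in the gene, first coding exons had 58.0 peaks per Mb, last ones 46.2, internal ones 38.7 and coding sequences of a single exon 25.4. First exons led in the list of replicate 3 (87.2, against 72.6 in last and 61.9 in internal ones) but not in that of replicate 1 (56.3, against 60.7 and 57.8). First-exon peaks were also the only class of the 4 found more often in replicate 3 (62 of 103, 60.2%) than in replicate 1 (53, 51.5%). When each coding sequence was cut into 3 equal parts, the density was 49.4 in the first, 30.4 in the middle and 46.6 in the last. The middle was lowest in each replicate list too, at 46.8 in replicate 1 and 53.9 in replicate 3. The summit was coding in every transcript that spans it for 588 peaks (76.3%). The shortest exon was the 6 bp last coding exon of CkIIbeta, a casein kinase subunit gene, and the longest the 7771 bp exon of tnc (tenectin), both named after their values were seen.

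**Figure D4:**
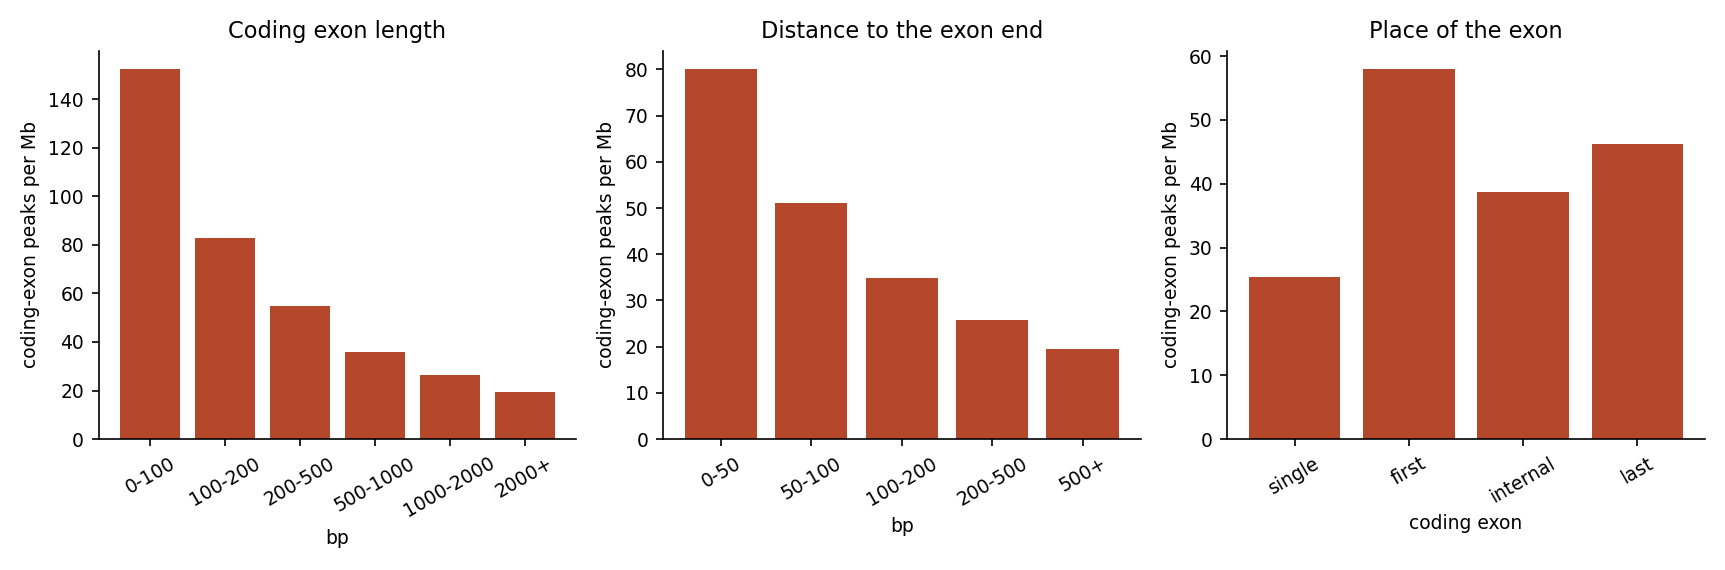
Coding-exon peaks per Mb of coding sequence more than 500 bp from a start, by length of the coding exon (bp, left), by distance of the summit from the nearest exon end (bp, centre) and by place of the exon in the coding sequence (right). Density is highest in exons under 100 bp (152), within 50 bp of an exon end (80.0) and in first coding exons (58.0), the last of these not so in replicate 1 alone.

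The peaks lay in 695 of the 12397 protein-coding genes that have eligible coding sequence (5.61%). A single peak was found in 635 of them, and 60 genes had 2 or more. Host genes were long, with a median of 1.999 kb of eligible coding sequence against 1.01 kb over all such genes. The share of genes with a peak was 1.79% of those with up to 0.5 kb and 20.2% of those above 10 kb, while the number of peaks per Mb went the other way, at 71.5 and 23.4.

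Of the 13 genes with 3 or more peaks, 7 are on chromosome 4. Those with 3 peaks tie, and the ones described are the 10 of highest signal after the number of peaks. Vps13D, pan and l(2)gl make up the rest, each with its 3 peaks in replicate 1 only. CG33978 had 6 peaks with signals of 13.4 to 21.97, all 6 in replicate 1 and 1 in replicate 3. The ephrin receptor gene Eph had 4 (13.4 to 22.4), all in replicate 1 and 2 in replicate 3, and the synaptic vesicle priming gene unc-13 had 4 (15.7 to 19.98), all in replicate 1 and 0 in replicate 3. The kinase gene Dyrk3 had 3 (14.01 to 23.5), the plasma membrane calcium pump gene PMCA 3 (16.4 to 22.9) and apolpp, which encodes the lipophorin that carries lipid in larval blood, 3 (13.4 to 21.2). Those of apolpp were in replicate 1 only, and those of PMCA in both.

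Off chromosome 4, br had 3 peaks on X (18.9 to 27.8), 2 of them in replicate 1 and all 3 in replicate 3. The BTB zinc finger gene lola had 3 (17.7 to 21.4), the BTB insulator gene mod(mdg4) 3 (16.8 to 20.99) and Cnot4, a ubiquitin ligase of the CCR4-NOT complex, 3 (16.5 to 22.2). Some of these overlap each other: a pair of rows at mod(mdg4), one at Cnot4 and one at PMCA shared the same partner row in each replicate, so their counts are not of separate sites. The tagged gene itself, CG32264, had a peak with 13.2 in the list of both together, the lowest of the 155 found in both replicates. The strongest rows that overlap it had 17.4 in replicate 1 and 9.64 in replicate 3, and may belong to a neighbouring region. A second peak of CG32264, with 27.9, 13.8 and 15.2 in the same order of lists, lay where its coding sequence overlaps that of ntc, which encodes an F-box protein of sperm maturation.

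Lists of genes were read against 5.61% of genes with a peak and 41.4 peaks per Mb of eligible coding sequence in all. They were chosen with earlier results of these data known. Because longer genes had more peaks, the density is given beside each count. Most of the peaks counted had weak q values. The −log10 q was 0.691 at the strongest peak of br, 0.563 at InR and 0.321 at wg. Of the genes that answer to ecdysone, the steroid hormone of metamorphosis, 8 of 27 had a peak (29.6%, 147 per Mb), the highest share of the 16 lists. They were led by Eip63E, a cyclin-dependent kinase gene (29.8 in the list of both together, 17.98 in replicate 1, 12.2 in replicate 3), and br, the Broad transcription factors (27.8, 16.7 and 13.1). The Ets factor gene Eip74EF (23.99 and 18.9) and the nuclear receptor gene Hr3 (19.6) were in replicate 1 only. Of the ecdysone hosts, only Eip63E (1 peak) and br (2) had peaks found in both replicates, of 12 peaks in all. The list matched 29 of its 38 symbols, and its median gene had 2.875 kb of eligible sequence. Of all genes with 2 to 5 kb, 11.2% had a peak.

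Transcription factors of patterning had a peak in 13 of 86 genes (15.1%, 89.8 per Mb), led by otp, ci, br and lola, of which br also counts among the ecdysone genes. Signalling receptors and ligands had 8 of 57 (14.04%, 55.8 per Mb). The insulin receptor gene InR had 25.2 in the list of both together, 14.8 in replicate 1 and 10.3 in replicate 3, and the Wnt ligand gene wg had 19.8, 13.8 and 7.55. Both peaks of Notch, N (18.8 and 17.8), were in replicate 3 only, and that of Keren, Krn (16.4), a ligand of the EGF receptor, in replicate 1 only.

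Chromatin regulators had 10 of 61 (16.4%, 53.6 per Mb). The histone methyltransferase gene Set1 (29.1 and 13.3) was in replicate 1 only, while osa, of the Brahma remodelling complex (26.4, with 9.27 in replicate 1 and 14.5 in replicate 3), and Nipped-B, the cohesin loader (22.9, with 12.8 and 9.20), were in both. Genes of the actin cytoskeleton had 9 of 52 (17.3%, 64.7 per Mb), among them CG32264 itself. The spectraplakin gene shot (24.4) was in replicate 1 only. Act5C, a cytoplasmic actin gene whose coding sequence has near-identical copies elsewhere so that its reads may be shared, had 23.9, with 9.89 in replicate 1 and 12.9 in replicate 3. The formin gene capu had 20.7 and 19.96, both in both replicates.

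Ion channel and synapse genes had 11 of 56 (19.6%, 62.3 per Mb), led by the potassium channel gene Elk (28.4, with 20.6 in replicate 1 and 6.38 in replicate 3), with the glutamate receptor subunit GluRIIC (20.7) and unc-13 in replicate 1 only. Of the 14 peaks of this list, 4 were those of unc-13 on the dense chromosome 4. Another row had its summit 200 bp from that of Elk, so the replicate values of Elk may belong to that neighbour. Axon guidance and adhesion genes had 7 of 60 (11.7%, 22.2 per Mb), with the semaphorin receptor gene PlexA (22.7), the integrin gene if (19.4), the protease gene tok (17.2) and Dscam3 (14.8) each in replicate 1 only. Cuticle, trachea and epidermal matrix genes had 6 of 43 (13.95%, 27.6 per Mb), led by mey (21.2, with 15.4 in replicate 1 and 15.98 in replicate 3) and the cuticle protein gene Cpr49Ac (20.6).

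The muscle structure list had 3 of 29 (10.3%, 12.4 per Mb), at the projectin gene bt (19.7), the tropomyosin gene Tm1 (19.3) and the titin gene sls (17.1), each in replicate 1 only. Large kinases and ubiquitin ligases had 3 of 25 (12%, 19.7 per Mb), at Nipped-A, Lrrk and ctrip. Fat body and serum proteins had 3 of 20 (15%, 76.2 per Mb), at apolpp, the lipid droplet gene Lsd-2 and Fbp1. Of the 5 peaks of this list, 3 were those of apolpp on the dense chromosome 4, in replicate 1 only. Motors and centrosome genes had 1 of 36 (2.78%, 4.61 per Mb), the kinesin gene cana, and salivary gland glue genes 1 of 10, Eig71Ee.

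Ribosomal protein genes had 2 of 46 (4.35%), RpLP0 (21.6) and RpL23A (19.9), both in replicate 1 only. Their eligible sequence was only 13.2 kb, so the 152 per Mb rests on those peaks. Matrix and basement membrane genes had 0 of 16 and oxidative phosphorylation genes 0 of 38. The number of peaks per Mb was thus below the overall density in 7 of the 16 lists, those of matrix, oxidative phosphorylation, motors, muscle, large enzymes, axon guidance and cuticle. It was above it in the other 9, those of ribosomal proteins, ecdysone response, patterning factors, glue (86.8 on 1 peak), fat body, actin, ion channels, signalling and chromatin. No interval was computed for these densities, and their differences from the overall 41.4 were not tested. Some lay near it, such as chromatin (53.6 on 14 peaks) and signalling (55.8 on 9), and oxidative phosphorylation had only 21.7 kb.

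The distance limit cut through similar regions. Just inside it were CG46025 (505 bp from a start, signal 13.3), NO66 (502 bp, 18.1) and CG12116 (501 bp, 17.5), and just outside CG10555 (497 bp, 17.5), S-Lap4 (495 bp, 13.4) and Nazo (494 bp, 14.4).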

How the data were processed

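The authors deposited peak lists in dm6 for each replicate and for both together, each with 30000 rows, and an optimal IDR set. Per the deposited notes, each came from the replicate alignments and 1 further file. Chromatin was sonicated to 200 to 800 bp, per the labels. No source used here names the aligner, the peak caller, their versions or thresholds. The deposited signal of each row is the authors' value on a scale of its own list, and the deposited q value is given by the authors as −log10. Values of the list of both together have no SD or n. Read depth is not known from these lists, and without read counts no floor could be given.

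Summits were placed in the Ensembl BDGP6 coding annotation and sequence taken from the RefSeq release of dm6. Starts of transposable elements were not counted as transcript starts. Presence in a replicate was compared between coding-exon and intronic peaks by the two-sided exact test of Fisher (p-values adjusted over 3 results after Benjamini and Hochberg, threshold 0.05) and by the Mantel-Haenszel method over signal bins. Intervals cover counting error only. Python 3.11.15, scipy 1.17.1, statsmodels 0.14.6 and pandas 2.3.3 were used, and the scripts were tested on simulated data. The members and the 16 gene lists were chosen with earlier results of these data known.

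Named genes host the 15 strongest coding-exon peaks found in both replicates, those of the optimal set, the 10 genes with most peaks (ties by signal), up to 4 strongest per gene list, the 3 strongest absent from each replicate and the 3 weakest. Of the 15 strongest found in both, 5 met the requirements for printing the sequence. The alternatives changed the distance limit, the summit, the annotation rule, the overlap, the rows compared, the windows and the exon limits, left out each replicate, and, chosen after seeing the data, counted starts of transposable elements, left out chromosome 4, or gave densities by arm and exon in each replicate list alone.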

Additional observations from a re-analysis of the deposited data

How the results depend on the processing

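The odds ratios of presence stayed below 1 and past the threshold under every alternative run, at 0.472 to 0.828 for replicate 1, 0.339 to 0.684 for replicate 3 and 0.230 to 0.503 for both. Leaving out a replicate gives no value for presence. The ratio of median signals was 0.776 to 0.841. The number of coding-exon peaks was 132 with the stronger 50% of rows and 1061 to 1257 with 1 replicate left out. Their share was 2.96% beyond 250 bp from a start, 1.97% beyond 1000 bp, 1.96% where coding in every transcript, 0.88% in the stronger 50% of rows and 3.54 to 4.19% with 1 replicate left out. The G and C difference from intronic summits was 10.4 points, 12.8 over 50 bp on each side, 7.86 over 200 bp and 10.2 to 12.4 with 1 replicate left out. The share in long exons was 45.8% with a limit of 500 bp, and 24.98 to 29.8% with 1 replicate left out. Wider windows take in more intron, and other limits count other sets by construction. For the replicate lists the cause was not tested. Without chromosome 4, added after seeing the data, 710 peaks remained. No paired analysis was possible because the samples form 1 group.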
